A study of Mus musculus with 17 samples.

Results

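The genes described here are 10 genes of antigen presentation by the major histocompatibility complex (MHC), chosen by name and read as gene sums in all 17 kidney RNA libraries. They are 10 of 35971 genes in the deposited tables, and all 10 were among the 17011 genes tested. The 7 class II members are H2-Aa, H2-Ab1, H2-Eb1, H2-DMa, H2-DMb1, Cd74 and Ciita, and the 3 class I members are H2-K1, H2-D1 and B2m. All mice carried the lsl-PRCC-TFE3 KI allele at Rosa26, a knockin of the kidney cancer fusion PRCC‐TFE3 behind a stop cassette that Cre recombinase removes. The 4 Cre(−) mice were KSP-Cre(-), of which replicates 1 and 2 were also HIF1af/f and replicates 3 and 4 carried no flox allele. The KSP-Cre(+) groups were 3 PRCC‐TFE3 KI mice with no flox allele, 4 Hif1α KO mice (HIF1af/f), 3 Hif2α KO mice (HIF2af/f) and 3 DKO mice (HIF1af/f and HIF2af/f). KSP-Cre is driven by the promoter of cadherin 16 and acts in kidney epithelium, so that leukocytes, vessels and stroma of these kidneys keep the unrecombined alleles. Whole kidney tissue was sequenced, and age, sex and strain are not given in the labels used here.

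Class II molecules display peptides taken up from outside the cell to CD4+ T cells. They are made mainly by dendritic cells, B cells and macrophages and can be induced in kidney tubule cells by interferon gamma. H2-Aa and H2-Ab1 encode the chains of the I-A molecule and H2-Eb1 the beta chain of the I-E molecule. Cd74 encodes the invariant chain that fills the groove of class II molecules during assembly. H2-DMa and H2-DMb1 form the exchange factor that loads the peptide. Ciita is the transactivator that class II genes need for transcription. Class I molecules display peptides from inside the cell to CD8+ T cells and are made by nearly all nucleated cells. H2-K1 and H2-D1 encode the classical heavy chains and B2m the light chain that all class I molecules share.

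Promoters of both classes carry an X box and a Y box at a fixed spacing, where a multiprotein complex assembles that Ciita (class II) or Nlrc5 (class I) joins. A window of 250 bases before to 50 bases after the RefSeq start (GRCm38.p6) was used for 7 of the 10 members. Here 4 stretches are shown, 2 of class II and 2 of class I, because they carry both elements at nearly the same spacing. The capitals mark TGANG and ATTGG, the letters searched for on both strands with 10 to 25 bases between them, and each sequence is on the strand of its gene.
H2-Aa, chr17:34287857-34287917, minus strand: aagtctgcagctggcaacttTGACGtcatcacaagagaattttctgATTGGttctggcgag
H2-Eb1, chr17:34305761-34305822, plus strand: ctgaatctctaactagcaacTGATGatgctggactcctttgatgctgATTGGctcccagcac
H2-K1, chr17:34000349-34000408, minus strand: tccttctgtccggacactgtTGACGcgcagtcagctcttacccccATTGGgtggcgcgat
B2m, chr2:122147589-122147648, plus strand: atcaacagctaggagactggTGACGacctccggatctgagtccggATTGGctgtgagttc
The gap between the capitals was 21 bases in H2-Aa, 22 in H2-Eb1 and 20 in both H2-K1 and B2m. The pair of elements was also found in the windows of H2-DMb1 and H2-D1, each with a gap of 23 bases, and in neither window of H2-DMa. These gaps are those of the first match. In H2-Eb1, H2-DMb1 and H2-D1 a second TGANG overlaps the first, so a shorter gap can be read there. Of all 32851 promoter windows, 3.77% held the pair. CACGTG, the core of the sites that TFE3 and related factors bind, was in none of the windows of these 7 members and in 7.15% of all windows. CATGTG was likewise in none of them and in 14.2% of all windows. H2-Ab1 and Ciita had no window in the table. Cd74 was left out of the members' windows by choice, so the statements on members do not cover it.

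Library totals ranged from 16504419 to 24668827 expected counts, with a median of 18635282. At this depth 3 counts, taken as the smallest amount a library can show, corresponded to 0.122 to 0.182 CPM (counts scaled to a common library size), which covers counting error only. Kidney markers were present, with 8 proximal tubule genes summing to 11240 to 12960 CPM in Cre(−) kidneys and to 1007 to 1151 CPM in KI kidneys. Epas1, the gene of HIF2α, was at 136 to 149 CPM in Hif2α KO and 173 to 192 CPM in KI kidneys (log2 fold change -0.33, adjusted p = 0.0788 by edgeR). Hif1a was at 163 to 198 CPM in Hif1α KO and 184 to 232 CPM in KI kidneys, which overlap. Counts over the whole gene in whole kidney do not show the state of the floxed exons. KI replicate 2 stood apart by its adipocyte markers (800 summed CPM, against 55.1 and 84.5 CPM as the lowest and middle of the 3 KI kidneys) and its B cell markers (93.5 CPM).

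KI kidneys held more RNA of all 10 members than Cre(−) kidneys did, by 2.47 to 3.65 fold. Of all genes tested, 31.6% were called higher in this comparison and 60.9% in either direction. The median log2 fold change of the members was 1.72, beside 0.03 over all genes tested.

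Among the class II chains, H2-Aa stood at 114, 99.2, 55.8 and 63.7 CPM in the 4 Cre(−) kidneys. In the 3 KI kidneys it stood at 301, 352 and 175 CPM. The 3 KI values lay above all 4 Cre(−) values, with a log2 fold change of 1.73 (SE 0.28, adjusted p = 6.29e-05 from the quasi-likelihood test of edgeR after Benjamini-Hochberg correction, the source of every adjusted p below unless another test is named). H2-Ab1 had 197, 142, 91.7 and 111 CPM in Cre(−) kidneys and 544, 514 and 277 CPM in KI kidneys, again without overlap (log2 fold change 1.71, SE 0.27, adjusted p = 5.46e-05). H2-Eb1 had 127, 98.9, 63.5 and 86.3 CPM in Cre(−) kidneys and 274, 295 and 126 CPM in KI kidneys. Its lowest KI kidney, replicate 3, fell just below the highest Cre(−) kidney, and the log2 fold change was 1.304 (SE 0.29, adjusted p = 0.00118). In RNA of whole kidney, more cells of a type and more RNA per cell cannot be told apart.

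Cd74, the most abundant class II member, had 506, 320, 207 and 251 CPM in Cre(−) kidneys and 1326, 1380 and 803 CPM in KI kidneys. Its log2 fold change of 1.87 was the largest of the 10 members (SE 0.27, adjusted p = 2.5e-05). The exchange factor genes were lower in level. H2-DMa had 16.4, 11.0, 7.88 and 10.3 CPM in Cre(−) kidneys and 35.8, 38.3 and 25.8 CPM in KI kidneys (log2 fold change 1.55, SE 0.23, adjusted p = 2.86e-05). H2-DMb1 rose from 26.8 ± 8.08 CPM (SD, n = 4) to 67.3 ± 12.0 CPM (SD, n = 3), which is 1.33 on the log2 scale (SE 0.19, adjusted p = 1.87e-05). It shares much of its sequence with H2-DMb2, so that reads may have been divided between them. Ciita, the least abundant member, had 12.1, 8.03, 6.69 and 6.44 CPM in Cre(−) kidneys and 27.5, 37.5 and 13.2 CPM in KI kidneys. The groups did not overlap, although KI replicate 3 came close to Cre(−) replicate 1 (log2 fold change 1.65, SE 0.36, adjusted p = 0.000861).

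The class I members rose as far and varied less between kidneys. H2-K1 had 297, 284, 261 and 304 CPM in Cre(−) kidneys and 931, 1069 and 909 CPM in KI kidneys (log2 fold change 1.76, SE 0.13, adjusted p = 1.97e-08). H2-D1 had 210, 216, 185 and 214 CPM in Cre(−) kidneys and 699.8, 828 and 709 CPM in KI kidneys (log2 fold change 1.85, SE 0.12, adjusted p = 9.72e-09). B2m had 447, 418, 383 and 454 CPM in Cre(−) kidneys and 1530, 1657 and 1322 CPM in KI kidneys (log2 fold change 1.82, SE 0.14, adjusted p = 5.14e-08). The lowest KI kidney exceeded the highest Cre(−) kidney by a wide margin for each of these genes. Over all 10 members, 9 had every Cre(−) kidney below every KI kidney, and 28.9% of all genes tested showed this.

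**Figure D1:**
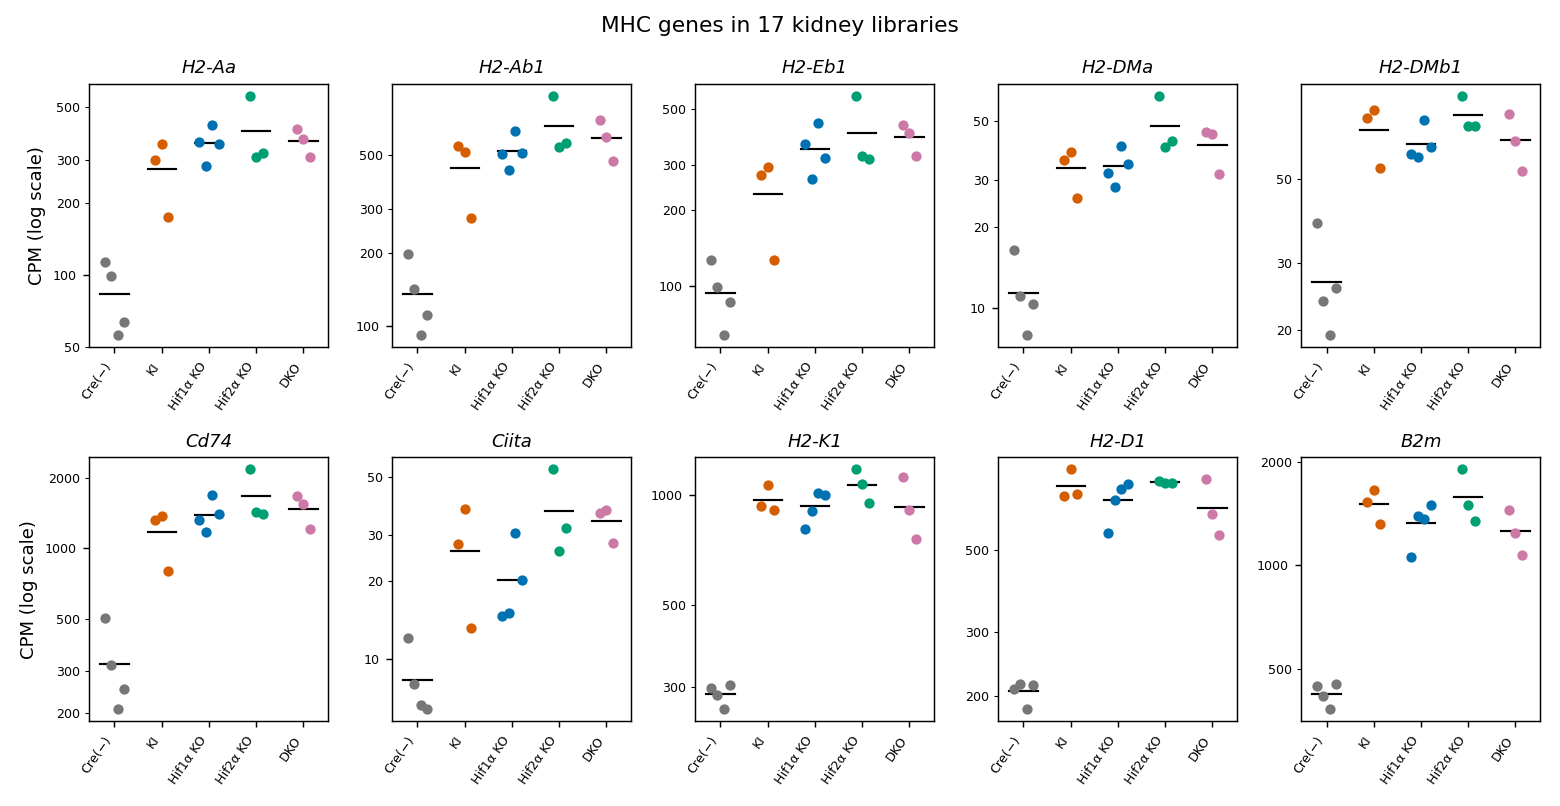
CPM of each of the 10 members (log axis, one panel a gene) in every library, with groups on the horizontal axis, a point for each kidney in replicate order and a line at the group mean. The 4 Cre(−) kidneys sit below all 13 Cre-positive kidneys for 9 members, with H2-Eb1 as the exception through KI replicate 3. The share of all genes with this pattern was not counted.

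Levels can be compared between genes only per transcript length, as TPM. In KI kidneys B2m had the highest mean at 2910 ± 467 TPM, followed by H2-K1 at 2514 ± 321, Cd74 at 1511 ± 473 and H2-D1 at 635 ± 83.5 TPM (SD, n = 3). H2-Ab1 reached 624 ± 235, H2-Aa 406 ± 147 and H2-Eb1 342 ± 147 TPM, and Ciita lay lowest at 7.69 ± 4.12 TPM (SD, n = 3). The ranges of B2m and H2-K1, of H2-D1 and H2-Ab1, of H2-Ab1 and H2-Aa and of H2-Aa and H2-Eb1 overlapped. Within each KI kidney, however, B2m lay above H2-K1, H2-Ab1 above H2-Aa and H2-Aa above H2-Eb1. H2-D1 lay above H2-Ab1 only in KI replicate 3. These orders were not tested. The TPM of H2-K1 was carried to 64.4 to 67.5% in KI kidneys by H2-K1-215, a retained-intron transcript of 457 nt. That of H2-D1 was carried to 64.8 to 67.8% by H2-D1-201, which the annotation used here lists at 406 nt. In KI replicate 1 it had 7743 counts at 417 TPM, and B2m (860 nt) had 26612 counts at 3045 TPM. The deposited H2-D1-201 was therefore longer than 406 nt. A transcript annotated for nonsense-mediated decay held 45.9 to 56.0% of the TPM of H2-Eb1. The places of H2-K1, H2-D1 and H2-Eb1 in the order depend on how reads were assigned to these transcripts. Fold changes on the TPM scale were larger than those above, since the median of all genes lay at 0.38 on the log2(TPM + 1) scale in the same comparison.

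The heavy chain loci are close relatives, and reads can be shared between them, so their sum was also tested. The summed CPM of 13 class I heavy chain genes ran from 757 to 898 in Cre(−) kidneys and from 1995 to 2445 in KI kidneys (log2 fold change 1.36, SE 0.13, adjusted p = 4.01e-07). H2-K1 held 33.1 to 34.5% of this sum in Cre(−) kidneys and 43.7 to 45.6% in KI kidneys. H2-D1 held 23.4 to 25.5% and 33.7 to 35.6%. The share of H2-K1 did not overlap between the groups (exact permutation test, two-sided p = 0.0571, which is the lowest value these group sizes permit). The other 14 class I-like genes tested were mixed, with 5 higher and 2 lower. Mr1, which presents vitamin metabolites to MAIT cells, was higher by 1.299, H2-Q10 by 1.28 and H2-Q4 by 1.22 on the log2 scale, whereas Fcgrt, the neonatal Fc receptor, fell by 1.10.

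Other genes of both pathways were called, in either direction, at about the share of all genes tested in this comparison (60.9%). Nearly all of their calls were higher, whereas 31.6% of all genes tested were called higher. Of 15 further class I pathway genes, 9 were higher and none lower. Nlrc5, the class I transactivator, rose from 9.92 ± 1.62 CPM (SD, n = 4) to 32.9 ± 10.4 CPM (SD, n = 3), which is 1.73 on the log2 scale (adjusted p = 2.3e-05). Psmb8 of the immunoproteasome rose by 1.33, the peptide transporter gene Tap1 by 1.14 and the loading factor gene Tapbp by 0.94 on the log2 scale. Of 14 further class II pathway genes tested, 7 were higher and 1, March8, was lower (log2 fold change -0.32), a gene whose product marks class II molecules for removal. H2-DMb2 had the largest rise, from 1.66 to 31.6 CPM (log2 fold change 4.25), and Ctsl, a lysosomal protease, rose from 406 to 7391 CPM (log2 fold change 4.19). H2-Eb2 was higher by 3.61, from a Cre(−) mean of 0.237 CPM, near the smallest detectable amount, to 0.799 to 6.03 CPM in KI kidneys. Ctss, the protease that trims the invariant chain, was higher by 2.32. The genes of the X box complex were less moved, with log2 fold changes of 0.01 for Rfx5 and -0.08 for Rfxank, which did not pass the test, and 0.40 for Rfxap, which did.

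Of 12 genes of the interferon gamma axis, 6 rose from Cre(−) to KI kidneys and 1, Jak2, fell. The receptor genes Ifngr1 and Ifngr2 rose by 1.60 and 1.56 on the log2 scale, Gbp2 by 1.07 and Cxcl10 by 0.85. Ifng itself was near the smallest detectable amount, with a mean of 0.0928 CPM in Cre(−) and 0.18 CPM in KI kidneys.

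Pan-leukocyte markers moved with the members, whereas the lists of single leukocyte types differed in how many genes rose. Beside them, 31.6% of all genes tested were called higher in KI than in Cre(−) kidneys. Of 8 pan-leukocyte genes, 7 were higher in KI kidneys, and their summed level ran from 88.1 to 102.8 CPM in Cre(−) and from 126.5 to 326 CPM in KI kidneys. Of 14 macrophage and monocyte genes, 10 were higher, with sums of 346 to 411 CPM against 1944 to 2124 CPM, a sum to which the lysosomal genes Cd68 and Lyz2 contributed 1113 and 328 CPM on average in KI kidneys. Of 7 B cell genes, 5 were higher and 1 lower, with sums of 6.00 to 9.60 CPM against 5.71 to 93.5 CPM. Of 9 dendritic cell genes, 2 were higher and 2 lower, and their sums overlapped, at 25.3 to 34.3 CPM against 18.5 to 35.6 CPM. Of 8 T and NK cell genes tested, 3 were higher, with sums of 15.6 to 18.1 CPM against 17.6 to 44.6 CPM. No marker of these lists was at 0 in all libraries. KI replicate 3 had the lowest sums of the 3 KI kidneys for pan-leukocyte markers and the lowest levels of 6 class II members among all 13 Cre-positive kidneys.

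With the mean of the pan-leukocyte markers as a covariate, the class I members kept most of their difference (log2 fold changes 1.497 for H2-K1, 1.67 for H2-D1 and 1.54 for B2m). Class II members fell to 0.77 for H2-Aa, 0.85 for H2-Ab1, 0.87 for H2-DMa, 0.83 for H2-DMb1 and 1.04 for Cd74, all still past the threshold (adjusted p = 0.00389 to 0.013). H2-Eb1 (0.21, adjusted p = 0.48) and Ciita (0.33, adjusted p = 0.313) no longer passed it. The covariate itself differed between the groups, and the part of leukocytes in the class II difference was not tested beyond this fit. Libraries were numbered largely by group, so that effects of their order and of genotype cannot be told apart. Without KI replicate 2, the kidney with high adipocyte and B cell markers, all 10 members were still called higher.

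**Figure D2:**
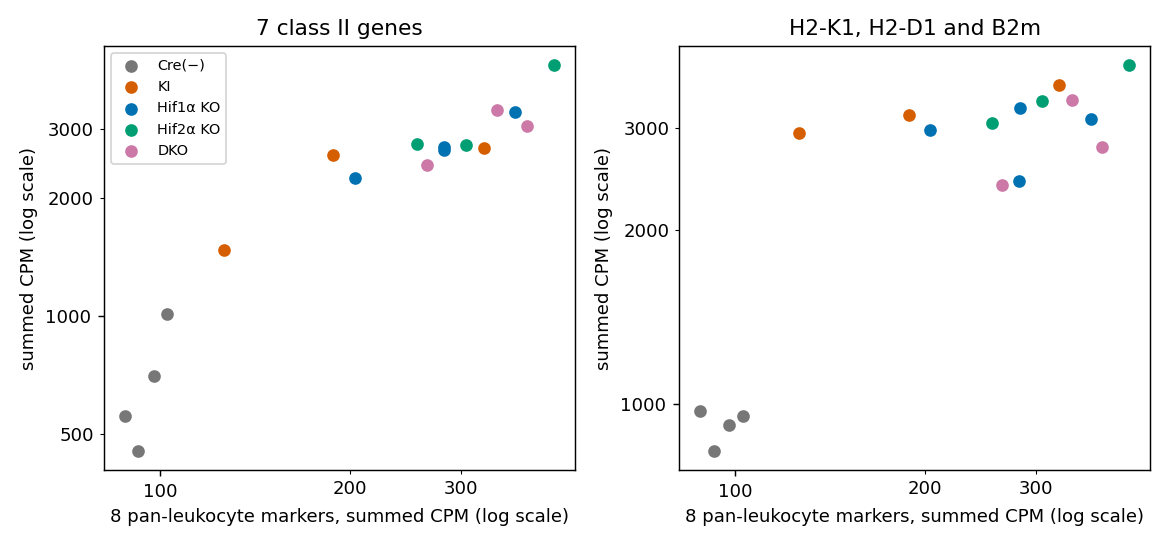
Summed CPM of the 7 class II members (left) and of H2-K1, H2-D1 and B2m (right) against the summed CPM of 8 pan-leukocyte markers, both axes log, a point for each of 17 kidneys coloured by group. KI replicate 3, at 126.5 CPM of leukocyte markers, has 1473 CPM of class II and 2941 CPM of class I genes, while the 4 Cre(−) kidneys have at most 1010 and 973 CPM.

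The 2 Cre(−) kidneys with the Hif1α flox allele were also compared with the 2 without it, a comparison added after the data were seen. For 6 of the 7 class II members both flox carriers lay above both other kidneys, and H2-DMb1 and the 3 class I members overlapped. The share of all genes that separated in this way was not counted. The class II members also varied together (correlations of 0.80 to 0.98 within groups), so these are not 6 separate observations. H2-Aa had a mean of 106 against 59.8 CPM (log2 fold change 0.83, adjusted p = 0.312) and Cd74 of 413 against 229 CPM (0.85, adjusted p = 0.266) by the same edgeR test. No member passed the threshold, and 0.0404% of all genes tested did. The class I members had differences of 0.04 to 0.10 on the log2 scale, and class II was not tested against class I. Against the flox carriers alone, the class II difference of KI kidneys was 1.39 for H2-Aa and 1.51 for Cd74, and against the pair without flox it was 2.22 and 2.36, and all 10 members passed in either case.

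The share of Cd74's 2 main transcripts was also compared, in groups too small for any of the 4 tests to pass the threshold. Its longer main transcript (1410 nt, 279 codons) adds an exon to the shorter one (1224 nt, 215 codons) and encodes the form of the invariant chain that carries a domain known to bind cathepsins. By the deposited transcript estimates, the longer transcript held 35.5, 36.9, 43.1 and 46.4% of Cd74 counts in the 4 Cre(−) kidneys and 25.5, 22.04 and 20.6% in the 3 KI kidneys. The groups did not overlap, with a difference of -17.8 percentage points (exact permutation test, two-sided p = 0.0571, the smallest possible here, 0.114 after adjustment over 4 comparisons). The share was 24.7 to 29.7% in Hif1α KO, 27.3 to 31.4% in Hif2α KO and 28.2 to 33.6% in DKO kidneys. Relative to KI kidneys the means differed by 5.0, 6.4 and 8.8 points (exact permutation tests, two-sided p = 0.114, 0.1 and 0.1, each 0.114 after adjustment). The smallest values these exact permutation tests permit are 0.0571, 0.1 and 0.1. These shares are estimates from single-end reads, and the comparison was chosen after the values were seen.

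**Figure D3:**
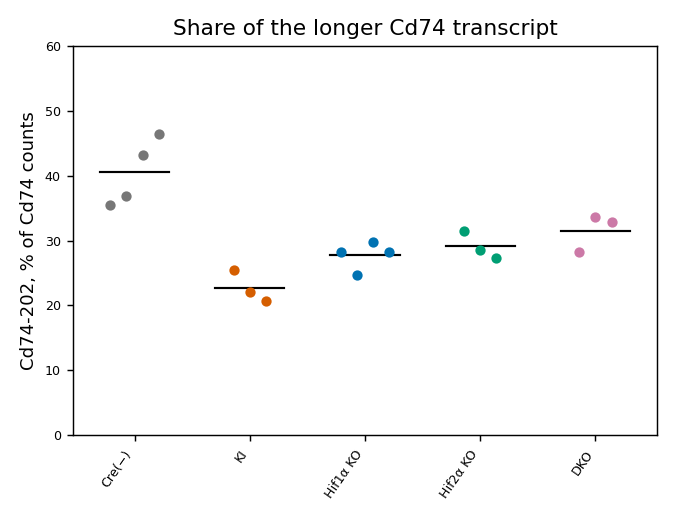
Share of Cd74 counts assigned to the longer transcript, in percent, for each kidney by group, with a line at the group mean. Cre(−) kidneys lie between 35.5 and 46.4% and all 13 Cre-positive kidneys between 20.6 and 33.6%.

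The knockout groups ask whether the levels depended on Hif1α or Hif2α in PRCC‐TFE3 KI kidneys. For all 10 members every knockout kidney lay above every Cre(−) kidney, a pattern whose share over all genes tested was not counted. The 3 comparisons below share the KI libraries, and no member passed the threshold in any of them. Of all genes tested, 5.44% were called between Hif1α KO and KI kidneys, 1.39% between Hif2α KO and KI kidneys and 12.7% between DKO and KI kidneys.

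In Hif1α KO kidneys 5 of the 10 members had a positive and 5 a negative log2 fold change relative to KI kidneys, and none had p below 0.05 before adjustment by edgeR's test. H2-Aa stood at 357, 286, 422 and 353 CPM (log2 fold change 0.36, SE 0.28, adjusted p = 0.492). Ciita stood at 14.6, 15.0, 30.5 and 20.0 CPM and had the most negative value of the members (-0.38, SE 0.34, adjusted p = 0.564). Leaving out KI replicate 2 or 3 moved the value of Ciita to -0.022 or -0.70, and leaving out KI replicate 3 moved that of H2-Aa to 0.12. All these values overlapped those of KI kidneys. With the leukocyte covariate, Ciita was called lower (-0.90, adjusted p = 0.0382). The class I members had log2 fold changes of -0.06 for H2-K1, -0.13 for H2-D1 and -0.18 for B2m, with SE of 0.12 to 0.14.

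In Hif2α KO kidneys all 10 members had a positive log2 fold change relative to KI kidneys, with a median of 0.51 beside -0.01 over all genes, but none passed the threshold and 2 had p below 0.05 before adjustment. These were H2-Eb1, at 567, 327 and 317 CPM (log2 fold change 0.80, SE 0.31, adjusted p = 0.182), and H2-DMa, at 62.2, 39.8 and 41.9 CPM (0.53, SE 0.24, adjusted p = 0.239). Both had every Hif2α KO kidney above every KI kidney, as had Cd74, at 2172, 1430 and 1404 CPM (0.51, SE 0.29, adjusted p = 0.352), and 9.52% of all genes tested showed this. Ciita stood at 53.3, 26.0 and 31.8 CPM (0.51, SE 0.36, adjusted p = 0.47). Replicate 1 was the highest of the 13 Cre-positive kidneys for 9 of the 10 members. It also had the most pan-leukocyte markers, at 421 CPM against 306 and 255 CPM in the other Hif2α KO kidneys. Without it the log2 fold changes were 0.48 for H2-Eb1, 0.29 for H2-DMa, 0.28 for Cd74 and 0.15 for Ciita, and without KI replicate 3 they were 0.51, 0.37, 0.30 and 0.19. With the leukocyte covariate 8 of the 10 members turned negative, all but H2-Eb1 and H2-DMa, so the shared direction depended on leaving it out. The class I members differed from KI kidneys by 0.14 for H2-K1, 0.03 for H2-D1 and 0.07 for B2m, with SE of 0.13 to 0.15.

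In DKO kidneys 6 of the 10 members had a positive log2 fold change relative to KI kidneys and 1 had p below 0.05 before adjustment. That was H2-Eb1, at 433, 403 and 326 CPM, above every KI kidney (log2 fold change 0.74, SE 0.31, adjusted p = 0.13), a pattern that 16.5% of all genes tested showed. H2-Aa stood at 406, 368 and 310 CPM (0.39, SE 0.30, adjusted p = 0.413), overlapping KI kidneys. Without KI replicate 3 these were 0.45 for H2-Eb1 and 0.14 for H2-Aa. With the leukocyte covariate 5 class II members, H2-Aa, H2-Ab1, H2-DMa, Cd74 and Ciita, turned from positive to negative. The class I members were -0.06 for H2-K1, -0.19 for H2-D1 and -0.26 for B2m, with B2m at 1447, 1246 and 1076 CPM (SE 0.15, adjusted p = 0.281).

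**Figure D4:**
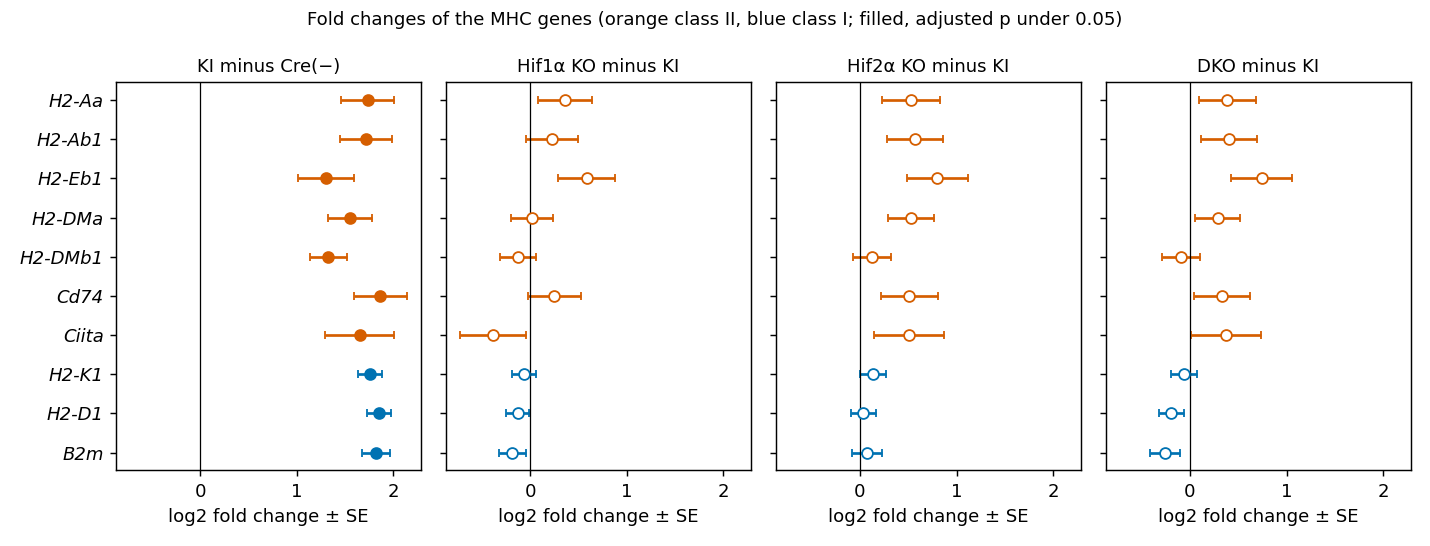
Log2 fold change with its standard error for the 10 members in 4 comparisons, on one scale. All values in KI minus Cre(−) lie between 1.304 and 1.87 and are filled (adjusted p under 0.05), and all values in the 3 knockout comparisons lie between -0.38 and 0.80 and are open.

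Some other genes of the pathway lists passed the threshold in these comparisons. In DKO kidneys the lysosomal protease genes Ctsl, Ctsd and Ctsb were lower than in KI kidneys by log2 fold changes of -1.18, -0.74 and -0.57, whereas Ctss was higher by 0.53, as it was in Hif1α KO kidneys by 0.58. Psmb10 of the immunoproteasome was higher in Hif2α KO kidneys by 0.73 and in DKO kidneys by 0.60, and Psme1 in DKO kidneys by 0.33. Of the interferon gamma axis, Gbp2 was higher in Hif2α KO kidneys by 0.61, and Irf1 and Cxcl10 in DKO kidneys by 0.65 and 0.86. No other gene of the pathway lists passed the threshold in these comparisons, and Nlrc5 had log2 fold changes of -0.01 in Hif1α KO, 0.46 in Hif2α KO and 0.21 in DKO kidneys. Of 9 dendritic cell markers, 5 were higher in DKO than in KI kidneys and none lower, with sums of 59.9 to 68.8 CPM against 18.5 to 35.6 CPM. In Hif1α KO and Hif2α KO kidneys 1 and 0 of them passed, with sums of 38.0 to 51.8 CPM and 46.8 to 71.1 CPM. Markers of other cells also differed between DKO and KI kidneys, with 5 of 6 distal tubule and collecting duct genes, 4 of 8 proximal tubule genes and 2 of 8 T and NK cell genes higher and none lower, and 2 of 14 macrophage and monocyte genes higher and 2 lower. The part of these cells in the values of the members was not tested.

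Between Hif1α KO and Hif2α KO kidneys no member passed the threshold by edgeR's test, where 0.429% of all genes did. All 10 had a negative log2 fold change for Hif1α KO minus Hif2α KO, and 2 had p below 0.05 before adjustment, namely Ciita (-0.89, SE 0.34, adjusted p = 0.228) and H2-DMa (-0.51, SE 0.22, adjusted p = 0.291). Without Hif2α KO replicate 1 the value of Ciita was -0.53. Between DKO and Hif1α KO kidneys, where 0.406% of all genes were called, Ciita again had the largest difference. It was higher in DKO kidneys by 0.75 on the log2 scale (SE 0.34, adjusted p = 0.36), and the other 9 members lay between -0.08 and 0.27. The interaction of Hif1α and Hif2α loss gave no call among the members, none with p below 0.05 before adjustment, and 0% of all genes were called. DESeq2 and limma likewise called no member in these 3 comparisons or in the 3 against KI kidneys.

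By mean CPM the Cre(−) group was lowest and the Hif2α KO group highest for all 10 members. The neighbours among the 4 Cre-positive groups did not differ beyond their spread by edgeR's test in the pairs compared. Without Hif2α KO replicate 1, Hif2α KO was the highest group for 4 members, and DKO or KI for the rest.

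Chromosome 17 carries 7 of the members, H2-K1, H2-DMa, H2-DMb1, H2-Ab1, H2-Aa and H2-Eb1 between 33996017 and 34316674 and H2-D1 from 35262730 to 35267499 (GRCm38), and also Epas1, at 86753700. A flox allele brings with it a stretch of the chromosome it was made on, so calls near Epas1 and near the H2 genes were counted. Between Hif2α KO and KI kidneys 12 of 845 genes tested on chromosome 17 were called, a share of 1.42%. In the window of 30 to 40 Mb that holds the H2 genes, 1 of 212 was called (0.472%), and this was Ubd, a ubiquitin-like modifier. In the window of 80 to 90 Mb that holds Epas1, 3 of 46 were called (6.52%), and these were Cox7a2l, Ppp1r21 and Ston1, all lower in Hif2α KO kidneys. DKO and Hif1α KO kidneys, which are other mice, gave 0 of 212 in the first window and 2 of 46 (4.35%) in the second. Cox7a2l, a factor of respiratory chain assembly, was lower by log2 fold changes of -0.90 and -0.63 in the 2 comparisons (adjusted p = 0.00661 and 0.0295). Ppp1r21 was lower by -1.18 and -0.84 (adjusted p = 0.0101 and 0.045). Both lie in the same window as Epas1, and whether loss of HIF2α or the chromosome beside the flox allele goes with their level cannot be told apart in this design. H2-Ea, whose product is absent in the b haplotype and which the annotation lists as the pseudogene H2-Ea-ps, had no count in the Cre(−), KI and Hif2α KO kidneys and at most 0.0498 CPM in any other. No library thus showed H2-Ea RNA above the smallest detectable amount, and whether reads of another H2 haplotype were counted in full was not tested.

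**Figure D5:**
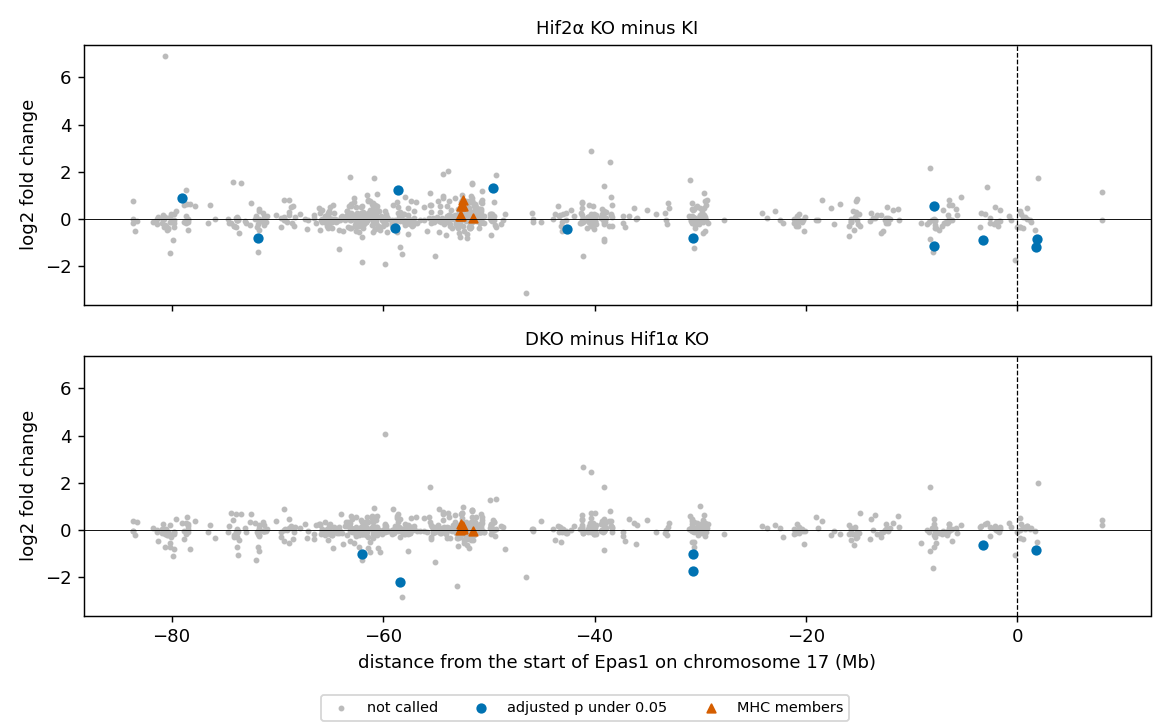
Log2 fold change of the 845 genes tested on chromosome 17 against their distance in Mb from the start of Epas1, for Hif2α KO minus KI (top) and DKO minus Hif1α KO (bottom). Called genes are blue, members are orange triangles to the left, and Cox7a2l and Ppp1r21 lie on either side of the dashed line, below 0 in both panels.

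Within groups, the members fell into 2 sets. Correlations of the deviations from the group means over the 17 libraries, given as a description because the points share depth and tissue make-up, were 0.80 to 0.98 among the class II members and 0.79 to 0.90 among the class I members. Between the sets they were 0.36 to 0.66. The genes outside the list most like the mean of 5 class II members were H2-M3 (0.94), Arhgap15 (0.94), H2-DMb2 (0.94), Lsp1 (0.93) and Ncapg (0.91). Those most like the mean of the class I members were H2-Q4 (0.93), Cd274 (0.91), H2-T23 (0.89), Tank (0.87) and P2ry13 (0.86). The leukocyte gene Ptprc had 0.66 with class II and 0.48 with class I.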

How the data were processed

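Polyadenylated RNA of whole kidney was read as single-end libraries, 17 in all. Per the labels and the methods of the study, the authors trimmed reads with Trim Galore 0.6.6 and cutadapt 2.5, aligned them with STAR 2.7.9a and deposited RSEM expected counts and TPM per transcript. The submitters' notes name both a human and a mouse build, and the transcript names are of mouse GRCm38.

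Transcripts were summed to genes by their deposited names (116770 of 119353 matched, with 99.04 to 99.24% of counts) and expected counts were rounded. Genes were kept by filterByExpr with a minimum count of 10. All 17 libraries entered 1 quasi-likelihood fit in edgeR 4.0.16 (R 4.3.3) with TMM scaling, with Benjamini-Hochberg adjustment over 17011 genes and a threshold of 0.05. SE is the log2 fold change divided by the root of F. CPM use the scaled totals. Alternatives used DESeq2 1.42.0, limma 3.58.1 on log2(TPM + 1), a leukocyte covariate, other controls, other filters and libraries left out. The fit was tested on simulated counts. Replicates are separate samples per the labels, and p-values measure the spread between them. The named genes are the members, up to 4 others of each pathway list in a comparison (those past the threshold with the largest changes and a mean TPM of at least 1), Nlrc5, H2-Ea, Epas1 and Hif1a, and the 5 genes most like each class. Rfx5, Rfxank, Rfxap, March8, Jak2, Ifng, Cd68, Lyz2 and the genes near Epas1 were named after their values were seen. The members and lists were chosen with earlier results of these data known.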

Additional observations from a re-analysis of the deposited data

How the results depend on the processing

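All 10 members were called higher in KI kidneys than in Cre(−) ones in every alternative except the pan-leukocyte covariate, where 8 were. There H2-Eb1 (0.21) and Ciita (0.33) missed the threshold. With each library left out in turn the count stayed at 10, and the class I heavy chain sum ran from 1.27 to 1.42. With the covariate 1 member, Ciita, was called between Hif1α KO and KI kidneys (-0.90), where the count was otherwise 0.

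Directions turned in the knockout comparisons, where no member was called. With the covariate the log2 fold changes for Hif1α KO minus KI were -0.058 for H2-Aa, -0.17 for H2-Ab1, -0.31 for H2-DMa and -0.14 for Cd74. For Hif2α KO minus KI they were -0.10 for H2-Aa, -0.0048 for H2-Ab1, -0.19 for H2-DMb1, -0.049 for Cd74, -0.24 for Ciita, -0.038 for H2-K1, -0.083 for H2-D1 and -0.12 for B2m. For DKO minus KI they were -0.23 for H2-Aa, -0.18 for H2-Ab1, -0.19 for H2-DMa, -0.23 for Cd74 and -0.37 for Ciita. By limma on TPM, H2-DMa was -0.033 in Hif1α KO minus KI and H2-DMb1 0.013 in DKO minus KI. The causes were not tested.

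With libraries left out, Hif1α KO minus KI ran from -0.024 to 0.40 for H2-Ab1, -0.13 to 0.13 for H2-DMa and -0.11 to 0.017 for H2-K1. Hif2α KO minus KI ran from -0.012 to 0.22 for H2-DMb1, -0.0096 to 0.12 for H2-D1 and -0.080 to 0.18 for B2m. Members that kept their sign moved as well, such as Ciita from -0.70 to -0.022 in Hif1α KO minus KI and from 0.15 to 0.86 in Hif2α KO minus KI. DKO minus KI ran from -0.23 to 0.027 for H2-DMb1 and -0.22 to 0.065 for H2-K1. In windows of 5 Mb, 0 genes were called around H2-Aa in Hif2α KO minus KI and 1 around Epas1 in DKO minus Hif1α KO, since fewer genes lie in them.

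Replicate numbers were not treated as pairs in the main fit. Of 31 pairs of same-numbered libraries, 4 correlated above 0.1 (-0.223 to 0.249). Pairs of different number were not compared, so whether the mice were paired was not tested. The replicate block gave 10 calls among the members in KI minus Cre(−), 0 in the knockout comparisons and 1.39 for the class I heavy chain sum.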
